A study of Homo sapiens with 19 samples.

Results

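The chemokines described here are the 7 CXC family members that attract neutrophils: CXCL1, CXCL2, CXCL3, CXCL5, CXCL6, IL8 (CXCL8) and PPBP (the precursor of CXCL7). They were chosen by name for this shared function, and all 7 were found among the 31033 gene names of the array. The cells were THP-1, a human monocytic leukaemia line, turned into macrophage-like cells with 30 nM phorbol ester (PMA) for 16 to 18 h and rested for 2 to 3 h. They were then left untreated (UT) or given 0.1 mM vitamin C (vit C), and RNA was taken 8, 24, 48 and 96 h later. Every flask, UT flasks included, had therefore received PMA. All of the cells were of 1 cell line. Of 24 RNA samples with 3 biological replicates per condition, the 19 of sufficient RNA integrity were hybridised to Agilent one-colour arrays, which gave 2, 3, 2 and 3 UT arrays and 3, 2, 2 and 2 vit C arrays at the 4 time points.

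CXC chemokines are small secreted proteins. Those described here carry a Glu-Leu-Arg motif ahead of the CXC cysteines and act on the receptors CXCR1 (IL8RA on the array) and CXCR2 (IL8RB) of neutrophils, where they trigger directed migration and degranulation. CXCL1, CXCL2 and CXCL3 are the closely related GRO chemokines. CXCL5 and CXCL6 are a second pair of near relatives, IL8 is the best known neutrophil attractant, and PPBP is stored in platelets and processed to an active form. In monocytes and macrophages their genes are known to be switched on by IL-1, TNF and Toll-like receptor signals through NF-kappa-B, and many of their mRNAs are short-lived.

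Monocyte and macrophage markers were well above background on all 19 arrays for 10 of the 11 genes on the array. All values below are log2 signals minus the 75th percentile of the same array, so a difference of 1 is a 2-fold difference, and levels of different genes are not compared. The 75th percentile of the signal ran from 290.2 to 903.5, with the 2 vit C arrays of 96 h at 787.6 and 903.5 and the other 17 at 290.2 to 625.6. Arrays of the same group correlated at 0.9296 to 0.9954 and arrays of different groups at 0.8829 to 0.9852. These correlations were taken over the 25683 probes well above background on all arrays. The arrays lay on 4 slides. Slide 1 held the UT arrays of 8, 24 and 48 h and the first of 96 h. Slide 2 held the other 2 UT arrays of 96 h and the vit C arrays of 8 h, 24 h and the first of 48 h, slide 3 held the second vit C array of 48 h, and slide 4 held both vit C arrays of 96 h and was scanned on another day. Changes with time up to 48 h thus lay mostly within a slide, whereas vit C and UT cells at 8, 24 and 48 h lay on different slides. At 96 h slide, scan day and treatment cannot be told apart. Nor can slide, scan day and time between 8 and 96 h in vit C-treated cells. Since RNA came from whole flasks, fewer expressing cells and less RNA per cell cannot be told apart either.

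All 7 genes lie together on chromosome 4, and their promoters are shown because most of them shared a sequence that the choice of genes did not use. The 150 bases upstream of each start site were taken from RefSeq (GRCh38.p14), and all 7 genes matched. They were chr4:73869243-73869392 for CXCL1, chr4:73836528-73836677 for CXCL6 and chr4:73740419-73740568 for IL8 on the plus strand, and chr4:74099196-74099345 for CXCL2, chr4:74038690-74038839 for CXCL3, chr4:73998678-73998827 for CXCL5 and chr4:73988191-73988340 for PPBP on the minus strand. Capitals mark matches, on either strand, to the NF-kappa-B sequence GGGAATTTCC, to its shorter form GGAATTTCC, which lies within it, and to the AP-1 sequence TGANTCA.
CXCL1: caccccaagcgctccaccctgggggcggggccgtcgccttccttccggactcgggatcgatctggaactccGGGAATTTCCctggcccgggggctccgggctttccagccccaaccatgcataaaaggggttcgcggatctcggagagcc
CXCL2: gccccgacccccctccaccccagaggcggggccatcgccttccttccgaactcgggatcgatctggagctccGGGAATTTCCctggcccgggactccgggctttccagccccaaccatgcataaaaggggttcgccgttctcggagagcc
CXCL3: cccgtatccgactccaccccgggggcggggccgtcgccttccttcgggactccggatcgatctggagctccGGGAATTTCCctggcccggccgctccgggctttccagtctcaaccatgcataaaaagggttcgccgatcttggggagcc
CXCL5: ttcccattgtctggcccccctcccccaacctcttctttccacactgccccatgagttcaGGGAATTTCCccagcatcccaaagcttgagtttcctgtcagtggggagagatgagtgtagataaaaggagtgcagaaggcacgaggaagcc
CXCL6: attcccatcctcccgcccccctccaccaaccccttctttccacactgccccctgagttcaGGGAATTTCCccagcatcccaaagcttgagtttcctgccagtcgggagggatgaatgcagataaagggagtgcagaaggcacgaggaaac
IL8: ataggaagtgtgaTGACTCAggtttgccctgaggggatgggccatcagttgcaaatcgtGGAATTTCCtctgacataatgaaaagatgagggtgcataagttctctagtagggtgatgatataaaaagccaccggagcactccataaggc
PPBP: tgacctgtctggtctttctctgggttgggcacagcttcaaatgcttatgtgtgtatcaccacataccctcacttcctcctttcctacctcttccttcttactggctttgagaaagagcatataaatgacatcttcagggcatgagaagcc
The 10-base form occurred in 5 of the 7 promoters, CXCL1, CXCL2, CXCL3, CXCL5 and CXCL6, with its first base at -91 to -78 counted from the start site. It was found in 31 of 35116 RefSeq promoters of the same length (0.0883%). The 9-base form was also present in IL8, at base -91, and in 89 promoters in all (0.253%). The AP-1 sequence was present in IL8 only, at base -137, and in 1463 promoters in all (4.17%). PPBP held none of the 3 within these bases. The promoters were most alike within the GRO group, with 88.7% identity between CXCL1 and CXCL2, 88.1% between CXCL1 and CXCL3 and 86.1% between CXCL2 and CXCL3, and between CXCL5 and CXCL6, with 89.4%. All other pairs were 42.7% to 56.4% identical. A match is a description of these letters, and binding of a factor was not measured.

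With time after differentiation 6 of the 7 chemokines rose in UT cells. CXCL1, CXCL2, CXCL3, CXCL5, CXCL6 and PPBP were called higher at 24 h than at 8 h, and the same 6 were called higher at 48 h. A gene was called when a probe differed by at least 1 on the log2 scale with a Benjamini-Hochberg q of at most 0.05 (limma, 2-sided), and 1.37% of the genes tested were called higher at 24 h and 5.53% at 48 h. The median difference of the members was 1.63 at 24 h and 2.21 at 48 h, beside 0.05 and 0.04 for all genes. For all 7, every 24 h array and every 48 h array was above both 8 h arrays, as it was for 17.6% of all genes at 24 h and 33.9% at 48 h. At 96 h CXCL5, CXCL6 and PPBP were higher than at 8 h (8.9% of genes tested were higher), whereas CXCL2 and CXCL3 were lower (7.18% were lower). Some of these calls rested on single arrays. At 24 h CXCL5 and CXCL6 were lost without either UT array of 8 h (q = 0.102 and 0.122 for CXCL5, q = 0.087 and 0.203 for CXCL6), and CXCL6 also without the first (q = 0.068) or the second (q = 0.061) UT array of 24 h. Fitted on the arrays of the compared groups only, 2 members were called at 24 h (CXCL2 and CXCL3, with q = 0.0519 to 0.0839 for the other 4), 6 at 48 h and 2 at 96 h (CXCL5 and PPBP). The time comparisons within each arm share its 8 h arrays.

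In vit C-treated cells the same 6 chemokines were called higher at 24 h and at 48 h than at 8 h. The median difference was 2.10 at 24 h and 3.09 at 48 h, beside -0.06 and 0.08 for all genes, and 2.95% and 8.1% of the genes tested were called higher. Again the arrays of 24 h and of 48 h lay above those of 8 h for all 7, as for 18% and 26.8% of all genes. At 96 h CXCL1, CXCL5, CXCL6 and PPBP were higher than at 8 h (10.9% of genes tested) and IL8 was lower (18% of genes tested). The 96 h arrays lay on another slide and scan day than the 8 h arrays, so that time cannot be told apart from these. The 24 h call of CXCL5 rested on its dimmer probe, at least 1.09-fold higher (q = 0.0108), and was lost without either vit C array of 24 h, and that of CXCL6 was lost without the second (2.55, q = 0.0656). The plot of the 7 chemokines by array shows the 2 courses side by side.

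**Figure D1:**
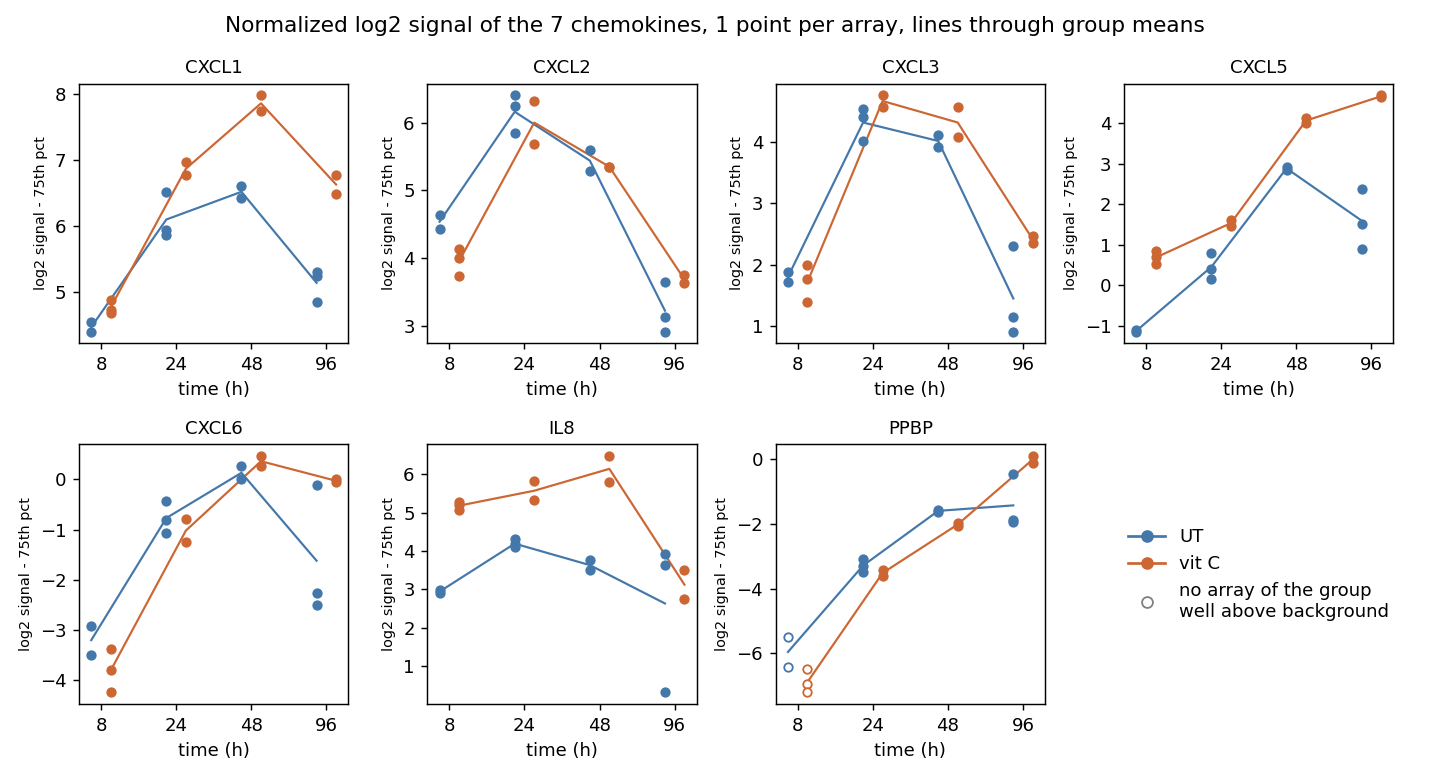
Normalized log2 signal (vertical axis, log2 signal minus the 75th percentile of the array) of the brightest probe of each chemokine against time in hours, with 1 point per array and lines through the group means of UT (blue) and vit C-treated cells (orange). Open points mark groups in which no array was well above background, which were the 8 h groups of PPBP. CXCL1 and CXCL5 lay higher in vit C-treated than in UT cells at all 4 times, whereas the differences of CXCL2 ran from -0.58 to 0.45.

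CXCL1, the first of the GRO chemokines and a strong CXCR2 agonist, lay at 4.40 and 4.55 on the 2 UT arrays of 8 h, at 6.51, 5.94 and 5.86 at 24 h, at 6.43 and 6.61 at 48 h and at 4.85, 5.25 and 5.31 at 96 h. With vit C it lay at 4.73, 4.88 and 4.69 at 8 h, at 6.78 and 6.97 at 24 h, at 7.74 and 7.98 at 48 h and at 6.77 and 6.49 at 96 h. The lowest vit C array was above the highest UT array at every time point. The difference was 0.29 (SE 0.22, q = 0.648) at 8 h and 0.77 (SE 0.22, q = 0.0968) at 24 h, neither of which passed. It was 1.34 (2.54-fold, SE 0.24, q = 0.00897) at 48 h and 1.49 (2.82-fold, SE 0.22, q = 0.00142) at 96 h, where CXCL1 was called higher with vit C. Over the 4 time points the average difference was 0.98 (SE 0.11, q = 1.14e-04), just under the fold threshold. The F test of differences between the 4 effects gave q = 0.153.
The 48 h call was lost without the first UT array (1.25, q = 0.0784), without the second (1.43, q = 0.0521) or without the second vit C array (1.23, q = 0.0836). It was lost with the compared groups only (q = 0.0758) and the methods' t-test (q = 0.218). With slide as a fixed block it was also lost, at 0.79, while the 8 h difference turned to -0.14. That block rests on the 3 UT arrays of 96 h to link slides 1 and 2. With slide as a random block the 48 h difference was 1.33 (q = 0.0122). Within UT cells CXCL1 rose 3.09-fold by 24 h (1.63, q = 9.16e-04) and 4.13-fold by 48 h (2.05, q = 7.71e-05). Within vit C-treated cells it rose 4.3-fold (2.10, q = 5.1e-05), 8.54-fold (3.09, q = 3.74e-07) and, at 96 h, 3.65-fold (1.87, q = 2.28e-05).

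CXCL2, the GRO chemokine best known as a macrophage inflammatory protein, was measured by 2 probes. The brighter lay at 4.43 and 4.64 in UT cells at 8 h, at 6.40, 6.24 and 5.84 at 24 h, at 5.29 and 5.60 at 48 h and at 3.13, 2.92 and 3.65 at 96 h. With vit C it lay at 4.00, 4.14 and 3.74 at 8 h, at 5.68 and 6.32 at 24 h, at 5.35 and 5.35 at 48 h and at 3.75 and 3.63 at 96 h. Group means were highest at 24 h in both arms. In UT cells CXCL2 was 3.08-fold higher at 24 h than at 8 h (1.62, q = 0.00308) and 2.47-fold lower at 96 h (-1.30, q = 0.00231). Its UT call at 48 h rested on the dimmer probe (1.37, q = 0.0141), beside 0.91 (q = 0.0606) on the brighter one, and was lost without any 1 of the 4 arrays. The vit C-treated cells had it 4.12-fold higher at 24 h (2.04, q = 2.39e-04) and 2.61-fold higher at 48 h (1.39, q = 0.00184).
CXCL3, the third GRO chemokine, followed a like course. Its brighter probe lay at 1.88 and 1.71 in UT cells at 8 h, at 4.40, 4.53 and 4.01 at 24 h, at 3.91 and 4.11 at 48 h and at 0.91, 1.15 and 2.30 at 96 h. Treated cells had it at 1.77, 1.99 and 1.40 at 8 h, at 4.57 and 4.75 at 24 h, at 4.56 and 4.07 at 48 h and at 2.46 and 2.35 at 96 h. It was 5.72-fold higher at 24 h than at 8 h in UT cells (2.52, q = 8.32e-04) and 7.7-fold higher in vit C-treated cells (2.95, q = 1.08e-04). The lower level of CXCL3 in UT cells at 96 h than at 8 h was called on its dimmer probe (-1.03, q = 0.0107), beside -0.34 on the brighter one, and was lost without the second UT array of 8 h or of 96 h. Over the 19 arrays CXCL2 and CXCL3 correlated at 0.92, the closest pair of the 7. The points share the 8 groups, and each pair of values comes from 1 array.

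By their brighter probes neither CXCL2 nor CXCL3 differed between vit C-treated and UT cells by a called amount at any time. The CXCL2 differences were -0.58 (q = 0.385) at 8 h, -0.16 at 24 h, -0.10 at 48 h and 0.45 (SE 0.26, q = 0.273) at 96 h, and those of CXCL3 were -0.08, 0.35, 0.30 and 0.95 (SE 0.34, q = 0.0726). Their dimmer probes passed at 96 h, CXCL2 at 1.39 (2.62-fold, SE 0.30, q = 0.0144) and CXCL3 at 1.04 (2.06-fold, SE 0.26, q = 0.0292), and both genes were called on these.
On the dimmer CXCL2 probe the 3 UT arrays of 96 h lay at 1.00, 0.21 and 1.28 and the vit C arrays at 2.21 and 2.24, and on the dimmer CXCL3 probe at 0.45, -0.02 and 0.98 and at 1.53 and 1.50. The dimmer probes of both genes overlap over 32 bases, of which 30 are identical. They are shown because the 2 calls rest on them, with the 2 differing bases in capitals.
CXCL2: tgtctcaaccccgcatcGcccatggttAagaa
CXCL3: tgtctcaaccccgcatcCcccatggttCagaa
The array's annotation lists CXCL3 for the dimmer CXCL2 probe as well. To which of the 2 genes the 96 h calls belong is therefore uncertain, and they are not independent of each other. Both were lost without either vit C array. That of CXCL3 was also lost without the second UT array, where neither of its probes reached the threshold of 1. The UT call of CXCL2 at 48 h rests on the same dimmer CXCL2 probe, so that its gene is uncertain too.

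CXCL5, an attractant of neutrophils also called ENA-78, had the largest vit C difference of the 7. It lay at -1.12 and -1.15 in UT cells at 8 h, at 0.79, 0.40 and 0.16 at 24 h, at 2.84 and 2.92 at 48 h and at 0.90, 1.51 and 2.36 at 96 h. With vit C the values were 0.83, 0.70 and 0.52 at 8 h, 1.45 and 1.60 at 24 h, 4.13 and 3.99 at 48 h and 4.63 and 4.68 at 96 h. The groups did not overlap at any time point. In UT cells CXCL5 rose 3-fold by 24 h (1.59, q = 0.0132) and 16.2-fold by 48 h (4.02, q = 4.58e-06) and was 6.63-fold higher at 96 h than at 8 h (2.73, q = 2.18e-05). Treated cells showed a rise of 10.4-fold by 48 h (3.38, q = 4.09e-06) and of 15.7-fold by 96 h (3.97, q = 4.94e-07).
CXCL5 was 3.53-fold higher with vit C at 8 h (1.82, SE 0.32, q = 0.0235) and 8.35-fold higher at 96 h (3.06, SE 0.32, q = 9.52e-05). At 24 h and 48 h the differences of 1.07 (SE 0.32, q = 0.102) and 1.18 (SE 0.35, q = 0.0788) did not pass. It was the only member called for the average of the 4 effects, at 1.78 (SE 0.16, q = 1.6e-05), where 2.05% of the genes tested were called higher. The 8 h call was lost without any 1 of the 5 arrays of that time, with differences of 1.75 to 1.90 and q = 0.0513 to 0.171, with the methods' t-test (q = 0.103), with gene means of the probes (1.06, q = 0.219) and with slide as a fixed block, at 0.78. The 96 h call held without each of its 5 arrays, at 2.72 to 3.45, and was lost with the compared groups only (SE 0.46, q = 0.137) and with the methods' t-test (q = 0.268).

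The array also carries a dimmer CXCL5 probe and 4 probes filed under a cDNA clone whose accession the annotation lists for CXCL5 too. At 96 h all 6 gave the same direction. The dimmer CXCL5 probe lay at -4.67, -4.74 and -2.80 in UT cells, with 1 of the 3 arrays well above background, and at 0.43 and 0.47 in vit C-treated cells, a difference of 4.52 (SE 0.48, q = 1.09e-04). The clone probes differed by 3.96 (SE 0.23, q = 9.63e-07), 3.93 (SE 0.28, q = 4.05e-06), 3.46 (SE 0.44, q = 4.13e-04) and 3.36 (SE 0.64, q = 0.00769).
At 8 h the 6 probes did not give one picture. The first 2 clone probes differed by 1.11 and -0.05 at levels near background. For the other 2 no UT array of 8 h was well above background. Of these 1 was at least 1.66-fold higher with vit C, and the other has no measured fold. The dimmer CXCL5 probe was not well above background on any 8 h array. The F test of differences between the 4 vit C effects was passed by the dimmer CXCL5 probe (F = 15.43, q = 0.0231), not by the brighter one (F = 8.17, q = 0.0988), and by 2 of the 4 clone probes (q = 3.79e-04 and 7.97e-04). The dimmer CXCL5 probe was undetected at 8 h in both arms and at 24 h in UT cells, so background limited its effects there. Whether the CXCL5 effects differ between times can therefore not be decided by that probe. CXCL5 was the only member called in this test, by that probe alone, and 1.36% of all genes were called. Without either vit C array of 96 h or the second UT array of 8 h it was not called, and the brighter probe then had q = 0.265 and 0.296 without the former.

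**Figure D2:**
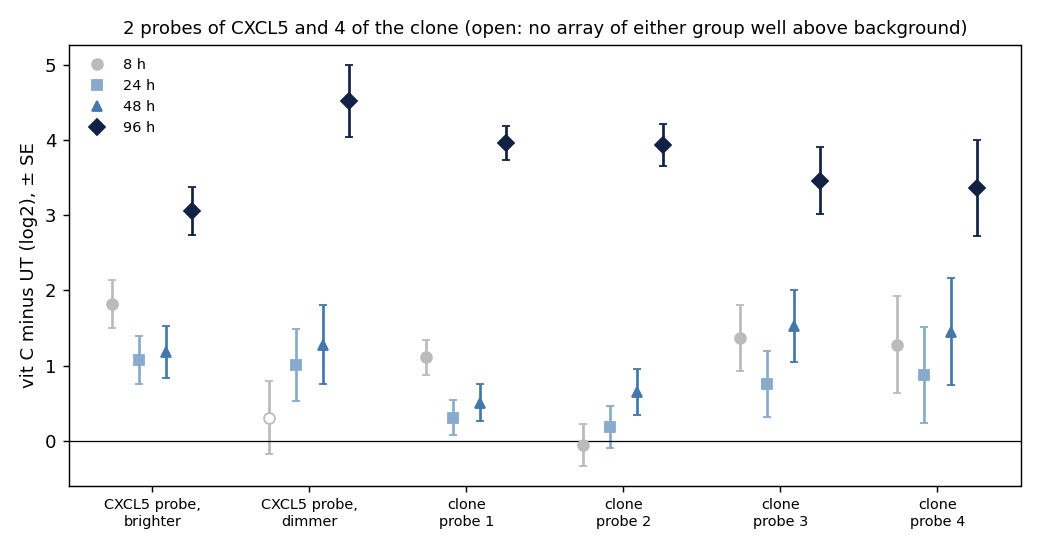
Difference between vit C-treated and UT cells (vertical axis, log2, with SE bars) at 8, 24, 48 and 96 h for the 2 CXCL5 probes and 4 probes of a clone whose accession is also listed for CXCL5. The open point marks a difference with no array of either group well above background. At 96 h all 6 probes lay between 3.06 and 4.52, while at 8 h they ranged from -0.05 to 1.82.

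CXCL6, the nearest relative of CXCL5 by promoter sequence, is also known as granulocyte chemotactic protein. It lay at -2.91 and -3.49 in UT cells at 8 h, at -0.43, -0.81 and -1.07 at 24 h, at 0.00 and 0.26 at 48 h and at -2.50, -2.26 and -0.11 at 96 h. Treated cells had it at -3.37, -3.80 and -4.24 at 8 h, at -1.25 and -0.78 at 24 h, at 0.46 and 0.26 at 48 h and at -0.06 and 0.01 at 96 h. CXCL6 rose in both arms. It was 10.1-fold higher at 48 h than at 8 h in UT cells (3.33, q = 0.00167), 17.9-fold in vit C-treated cells (4.17, q = 6.61e-05) and still 13.7-fold higher at 96 h in the latter (3.78, q = 1.01e-04). In UT cells the 96 h difference of 1.58 (2.99-fold, q = 0.0469) was lost without either UT array of 8 h (1.87, q = 0.0953, and 1.29, q = 0.267) and without the third UT array of 96 h (0.82, q = 0.0655).
With vit C the differences from UT cells were -0.60, -0.25 and 0.23 at 8, 24 and 48 h, none of them called. At 96 h the difference was 1.60 (3.02-fold, SE 0.53, q = 0.0563), which did not pass. Both vit C arrays were above all 3 UT arrays, and the third UT array, at -0.11, lay far above the other 2. Without that array the difference was 2.35 (q = 6.04e-04). Without the first UT array it was 1.16 (q = 0.17). With normexp background correction CXCL6 was called (1.21, q = 0.00802).

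PPBP, a platelet chemokine that monocytes can also make, was not well above background on any 8 h array. It lay at -6.41 and -5.51 in UT cells at 8 h, at -3.08, -3.29 and -3.50 at 24 h, at -1.57 and -1.62 at 48 h and at -1.89, -1.95 and -0.46 at 96 h. With vit C the values were -6.50, -6.96 and -7.21 at 8 h, -3.61 and -3.43 at 24 h, -2.08 and -1.97 at 48 h and 0.09 and -0.11 at 96 h. In both arms its group mean was highest at 96 h. In UT cells this rested on the third array (-0.46), as -1.89 and -1.95 lay below both 48 h arrays. Folds against the 8 h groups are lower bounds, taken against the weakest signal well above background on each array. The rise of PPBP in UT cells came to at least 3.81-fold by 24 h (q = 0.0015), 12.3-fold by 48 h (q = 1.39e-05) and 13.8-fold by 96 h (q = 1.42e-06). With vit C the rise came to at least 2.68-fold (q = 1.1e-04), 7.57-fold (q = 9.91e-07) and 30.5-fold (q = 2.32e-08).
With vit C PPBP was 2.68-fold higher than in UT cells at 96 h (1.42, SE 0.39, q = 0.0359), and the groups did not overlap. The call was lost without the first UT array (1.19, q = 0.0984), the first vit C array (1.32, q = 0.132) or the second (1.52, q = 0.199), and with quantile normalization (1.42, q = 0.06). At 24 and 48 h it differed by -0.23 and -0.43, which did not pass. PF4, another platelet chemokine, was well above background on 5 of 19 arrays.

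IL8 was the member with the largest differences that could not be called. It lay at 2.91 and 2.97 in UT cells at 8 h, at 4.17, 4.09 and 4.30 at 24 h, at 3.49 and 3.77 at 48 h and at 0.31, 3.64 and 3.93 at 96 h. The vit C arrays had it at 5.06, 5.27 and 5.21 at 8 h, at 5.82 and 5.33 at 24 h, at 5.80 and 6.47 at 48 h and at 3.49 and 2.74 at 96 h. The vit C arrays were above all UT arrays at 8, 24 and 48 h and within their range at 96 h. The differences were 2.24 (SE 0.74), 1.39 (SE 0.74), 2.50 (SE 0.81) and 0.49 (SE 0.74). A second IL8 probe, well above background on 1 of 19 arrays, went the other way, and the rule that removes genes with opposing probes left IL8 out at all 4 times. With opposing probes kept it was still not called, with q = 0.226, 0.353, 0.138 and 0.742. Its average difference of 1.66 (SE 0.38) was called with opposing probes kept (q = 0.0125), where 2.3% of all genes were called higher, and with the filter on dim probes (q = 0.0081).

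The 3 UT arrays of 96 h spread more than those of any other IL8 group (SD 2.01). Their first array, on slide 1, was 3.47 below the mean of the other 2, on slide 2. A difference at least as large was found in 0.101% of the 25683 probes well above background on all arrays. For the other members the same difference was 0.43 (CXCL1), 0.16 (CXCL2), 0.82 (CXCL3), 1.03 (CXCL5), 1.31 (CXCL6) and 0.69 (PPBP). The IL8 probe consists of A and T for 83.3% of its bases. Among 13 such probes, with at least 80% A and T and well above background on all arrays, the median of this slide difference was 2.01, and the medians of vit C minus UT were 1.28, 1.28, 1.38 and 0.25 at 8, 24, 48 and 96 h. Among 453 probes with 70% to under 80% they were 0.53 for the slide difference and 0.20, 0.28, 0.23 and 0.06 for vit C minus UT. Among 703 probes with under 40% they were -0.11 for the slide difference and 0.41, 0, 0.34 and -0.02 for vit C minus UT. With slide as a fixed block IL8 turned to -1.23, -2.09 and -1.31 at 8, 24 and 48 h. The part of probe base composition in the IL8 differences was not tested.
Within slide 1 IL8 was called higher in UT cells at 24 h than at 8 h (1.25, q = 0.031). Over all 19 arrays the same difference had q = 0.38. In vit C-treated cells IL8 was 4.19-fold lower at 96 h than at 8 h (-2.07, q = 0.0407), which was lost without any 1 of the 5 arrays (-2.44 to -1.69, q = 0.0722 to 0.222). The plot of IL8 by slide sets these values beside the base composition of all probes.

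**Figure D3:**
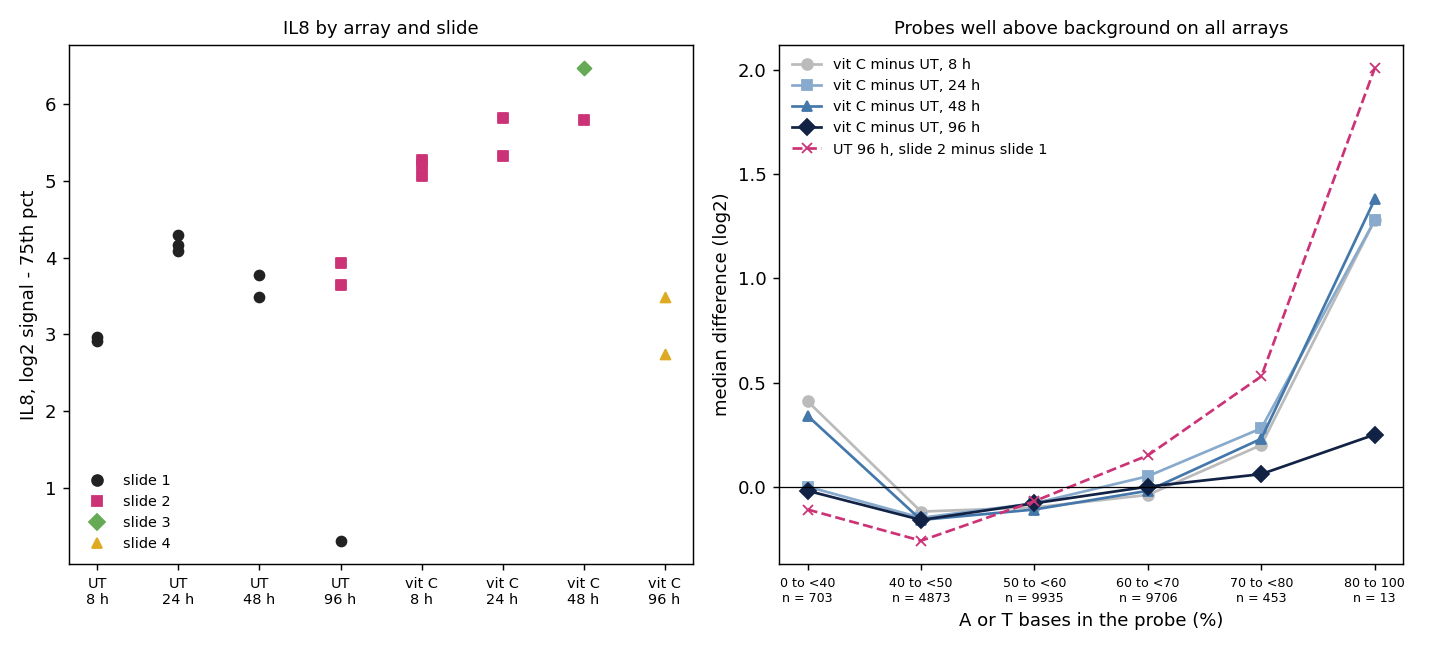
Left, normalized log2 signal of IL8 (vertical axis) on each array by group, with the slide given by colour and shape. Right, median difference (log2, vertical axis) against the share of A or T bases in the probe for vit C minus UT at each time and for slide 2 minus slide 1 among the UT arrays of 96 h. The UT array of 96 h on slide 1 lay at 0.31 against 3.64 and 3.93 on slide 2, and the medians of the 13 probes richest in A and T were 1.28 to 1.38 at 8, 24 and 48 h.

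Vit C and UT cells were then compared over all 7 members. At 8 h 1 member was called higher (CXCL5, with 0.322% of genes tested higher), at 24 h none in either direction (1.65% of genes tested), at 48 h 1 (CXCL1, with 2.08%) and at 96 h 5 (CXCL1, CXCL2, CXCL3, CXCL5 and PPBP, with 2.72%). At 24 h the limma fit gave an unadjusted p under 0.05 for 2 members, CXCL1 and CXCL5, and the methods' t-test called none. The median difference of the members was -0.08, 0.35, 0.30 and 1.42, beside -0.05, -0.13, -0.02 and -0.15 for all genes. At 96 h all 7 brightest probes were higher with vit C.
Counted by arrays that do not overlap, at 8 h 3 members were higher (CXCL1, CXCL5, IL8) and 2 lower (CXCL2, PPBP), beside 14.8% and 24.3% of all genes. No 8 h array had PPBP well above background, so that it has no measured direction there. At 24 h 4 were higher (CXCL1, CXCL3, CXCL5, IL8) beside 12.1%, and at 48 h 4 were higher (CXCL1, CXCL5, CXCL6, IL8) and 1 lower (PPBP) beside 21.8% and 28.9%. At 96 h 5 were higher (CXCL1, CXCL3, CXCL5, CXCL6, PPBP) beside 10.7%.
The 96 h count depended on the fit and on single arrays. With the compared groups only and with the methods' t-test it was 0, with q of 0.137 or more and of 0.268 or more for the brightest probes of the 6 members tested. It was 3 without the first or the second UT array, 6 without the third, which was the highest of the 3 UT arrays for all 7 members, and 2 without either vit C array. With slide as a fixed block no member was called at 8, 24 or 48 h, and the 96 h comparison could not be fitted. With slide as a random block the 96 h count was 5.

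**Figure D4:**
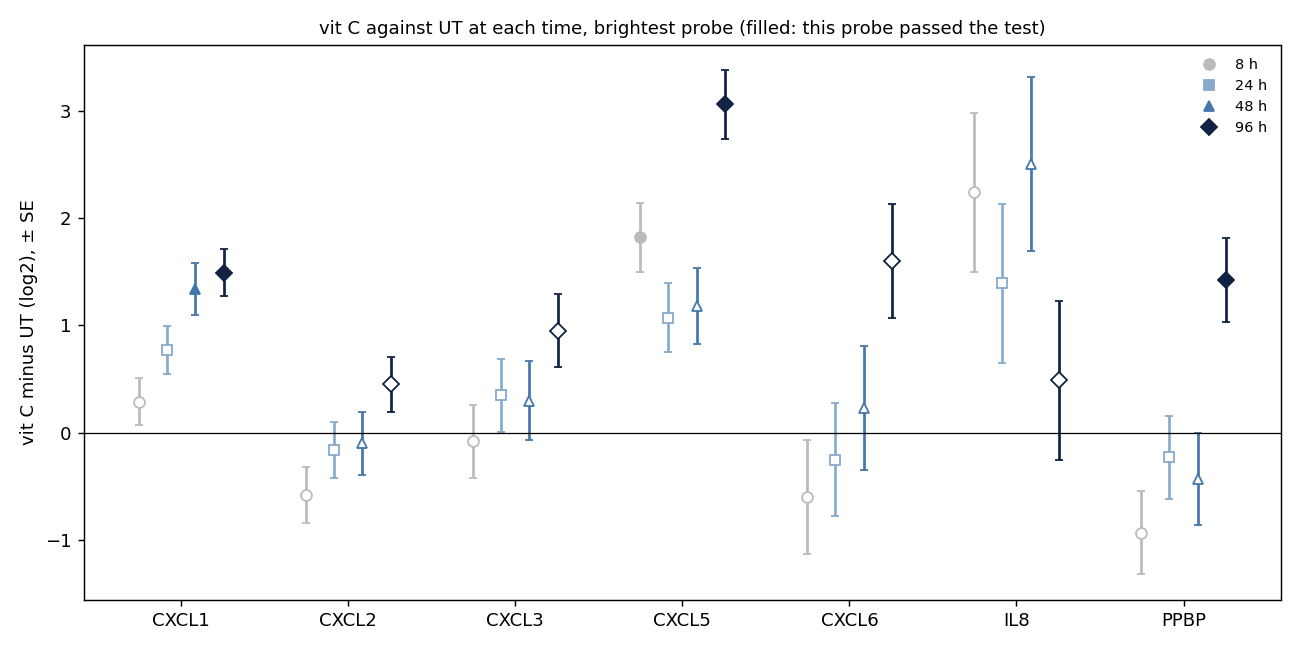
Difference between vit C-treated and UT cells (vertical axis, log2, with SE bars from limma) at 8, 24, 48 and 96 h for the brightest probe of each chemokine. Filled points passed the test by this probe. CXCL5 passed at 8 and 96 h, CXCL1 at 48 and 96 h and PPBP at 96 h, whereas CXCL2 and CXCL3 passed at 96 h only by their dimmer probes.

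The receptors of these chemokines were measured on the same arrays. IL8RA was well above background on 1 of 19 arrays, with group means of -6.39 to -5.73. IL8RB, well above background on 12 arrays, rose in UT cells from a mean of -4.17 at 8 h to -1.63 at 96 h (2.54, q = 0.00102) and in vit C-treated cells from -3.48 to -1.80 (1.68, q = 0.0129), where 8.9% and 10.9% of genes tested were higher. At 24 h it was lower than at 8 h in vit C-treated cells, by at least 3.1-fold (mean -5.26, q = 0.0302), where 2.66% of genes tested were lower. The UT mean of 24 h was -5.61, and opposing probes left that difference out of the test. DARC, the erythrocyte receptor that binds them without signalling, was above background on no array. None of the receptors tested was called for vit C against UT at 8, 24, 48 or 96 h, beside 0.322%, 0.835%, 2.08% and 2.72% of genes tested higher and 0.227%, 0.82%, 1.56% and 10.1% lower, and none had an unadjusted p under 0.05. All 3 were tested except IL8RB at 24 h, left out for opposing probes.

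The genes that induce these chemokines were read from a list of cytokines and receptors and from lists of the factors that act downstream. Counts here and for the lists below are out of the genes on the array, and genes with opposing probes count as not called. Of 13 inducing cytokines and receptors on the array and of 14 NF-kappa-B genes, none was called for vit C against UT at 96 h, beside 2.72% higher and 10.1% lower of all genes tested, where 2 and 1 had an unadjusted p under 0.05 in limma and the medians were -0.02 and -0.12. TNF was higher with vit C by 0.79 (q = 0.0408), under the fold threshold. Genes with opposing probes, 2 of the 13 and 1 of the 14, were not tested. By their brightest probes TNFRSF1A differed by -0.02 and IKBKB by 0.15. The third was IL1RN, which lay at 3.42, 3.28 and 2.78 in UT cells and at 1.13 and 0.84 in vit C-treated cells by its brightest probe, a difference of -2.18. At 24 h 1 of the 13 was lower with vit C, the Toll-like receptor TLR4, by another probe than its brightest, which differed by -0.89 (q = 0.0874), beside 0.82% of genes tested, and 3 had an unadjusted p under 0.05. At 48 h IL1RN, the IL-1 receptor antagonist, and IL1RAP, the IL-1 receptor accessory protein, were lower with vit C, by -1.37 (q = 0.00508) and -1.29 (q = 0.00394), the 2 of 13 called. At that time 1.56% of genes tested were lower.
Of 9 AP-1 and C/EBP genes, FOSB (-2.29, q = 3.4e-04) and ATF3 (-1.77, q = 1.44e-04) were lower with vit C at 96 h, where 10.1% of genes tested were lower. Opposing probes left 3 of the 9 out of the test. At 24 h ZFP36, which codes for an mRNA decay factor, was lower with vit C (-1.34, q = 0.00252), the 1 called of 6 mRNA decay genes, with 0.82% of genes tested lower. Of the 6, 1 had opposing probes and was not tested. At 8 h no gene of these lists or of those below was called in either direction, with 0.322% of all genes tested higher and 0.227% lower. Opposing probes left 2 of the 13 inducing, 1 of the 14 NF-kappa-B and 2 of the 9 AP-1 and C/EBP genes untested. So it was for 3 of the 9 other CXC chemokines and 1 of the 8 other neutrophil-directed factors. An unadjusted p under 0.05 was found for 1 of 13 inducing, 1 of 14 NF-kappa-B, 2 of 9 AP-1 and C/EBP and 1 of 6 mRNA decay genes, and for 0 of 9 other CXC chemokines, 1 of 8 other neutrophil-directed factors and 3 of 8 proteases.
The inducing genes changed in both directions with time. At 24 h IL1R1, the IL-1 receptor, was higher than at 8 h in UT cells (1.36, q = 0.0019), the 1 of 13 called, beside 1.37% of genes tested. With vit C IL1R1 (1.71, q = 1.52e-04) and TNF (1.40, q = 0.00185) were higher at 24 h and TLR4 was lower (-1.42, q = 0.00263), beside 2.95% and 2.66% of genes tested. At 48 h IL1R1 was higher (1.76, q = 1.43e-04) and TLR4 lower (-1.39, q = 0.00378) in UT cells, beside 5.53% and 3.38%. With vit C IL1A (2.46, q = 0.0273) and IL1R1 (2.21, q = 3.92e-06) were higher at 48 h and TLR4 was lower (-1.07, q = 0.00749), beside 8.1% and 5.02%.
Between 8 and 96 h in UT cells TNF (-3.02, q = 5.36e-07) and IL1A (-2.65, q = 0.0156) fell, and in all 5 of the 13 inducing genes were lower and 1 was higher, IL1R1 (1.96, q = 8.9e-06). Also lower were 2 of the 14 NF-kappa-B genes and 3 of the 9 AP-1 and C/EBP genes, with 7.18% of all genes tested lower. In vit C-treated cells, where 18% of all genes were lower, 5 of 13 inducing genes were lower, 5 of the 14 NF-kappa-B genes, among them RELA (-1.24, q = 0.0329) and REL (-1.03, q = 0.00147), and 5 of the 9 AP-1 and C/EBP genes.

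Other factors that act on neutrophils were read from a list of 8 genes. Of these, 6 were higher at 48 h than at 8 h in UT cells and 5 at 96 h, beside 5.53% and 8.9% of genes tested, with differences at 96 h of 6.57 for S100A9 (q = 1.08e-07) and 6.49 for S100A8 (q = 7.4e-09), the calprotectin subunits, and of 3.66 for ALOX5 (q = 2.18e-08), the 5-lipoxygenase of leukotriene synthesis. With vit C at 96 h 4 of the 8 were higher than in UT cells, beside 2.72% of genes tested. The test also called CSF2 lower, which was well above background on none of the 5 arrays of 96 h, so that it has no measured direction there. CSF3, which codes for the granulocyte growth factor G-CSF, was at least 3.66-fold higher (q = 0.00135), with no UT array of 96 h well above background. S100A9 (1.42, q = 0.0406), S100A8 (1.21, q = 0.0237) and LTA4H (1.07, q = 0.00632), the leukotriene B4 enzyme, were the other 3. Before that, S100A8 was higher with vit C at 24 h (1.22, q = 0.0493) and 48 h (1.58, q = 0.0139) and ALOX5 at 48 h (1.29, q = 0.00371), and ALOX5AP, the partner of ALOX5, was lower at 24 h (-1.05, q = 0.018).
Among 9 other CXC chemokines the direction was mixed. With vit C at 96 h CXCL14 was higher (1.53, q = 0.00224) and CXCL13, a B cell attractant, was lower (-2.16, q = 2.96e-05), beside 2.72% and 10.1% of genes tested. The test also called CXCL11 and PF4V1 lower. At 96 h the CXCL11 signal exceeded background clearly in 2 of 3 UT and 0 of 2 vit C arrays, and that of PF4V1 in none of the 5, so that PF4V1 has no measured direction. These 2 genes and CSF2 were named after their values were seen. CXCL13 was also lower at 48 h (-1.68, q = 9.23e-04). Of 8 proteases that cut these chemokines, MMP1 was lower with vit C at 24 h (-1.99, q = 4.58e-04) and, with MMP12 (-2.28, q = 0.00577), at 48 h (-1.47, q = 0.00428), beside 0.82% and 1.56% of genes tested lower. None was called at 96 h, beside 2.72% higher and 10.1% lower of all genes tested, where 1 had an unadjusted p under 0.05.

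Among all genes detected on all 19 arrays, the 5 whose values followed the mean course of the 6 members detected there most closely were ITGB8 (r = 0.97), CDC42EP2 (0.929), HS3ST3A1 (0.928), CDCP1 (0.926) and CD33L3 (0.925), of 17286. For CXCL1 alone they were SIGLEC15 (0.947), CD33L3 (0.945), ITGB8 (0.941), CDC42EP2 (0.938) and GNG11 (0.936). These are descriptions over 19 arrays that share the 8 groups. Among the members CXCL1 and CXCL6 (0.85) and CXCL6 and PPBP (0.84) were also close, whereas CXCL2 and CXCL5 (-0.08) and IL8 and PPBP (-0.26) were not.

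Markers of other cell types were read beside the chemokines. Of 5 neutrophil markers 1 was well above background on all arrays, and CEACAM8 and DEFA4 on none. Their summed level, as a share of the 75th percentile signal of the array, was 0.153 to 0.351 in UT cells and 0.846 to 1.17 in vit C-treated cells at 96 h. By brightest probes FCGR3B alone of the 5 was called higher (mean -3.33 in UT and -0.19 in vit C-treated cells), beside 2.72% of genes tested. CEACAM8 and DEFA4 were called lower from signals not well above background on any array, beside 10.1%, and CSF3R (-0.40) and MPO (0.54) were not called. FCGR3B and the other single markers given here were named after their values were seen. The sum of 6 platelet markers, 2 of them on all arrays, was 5.59 to 5.63 in UT and 8.59 to 11.2 in vit C-treated cells at 8 h, and 2.03 to 3.73 and 4.81 to 5.08 at 96 h. None of the 6 was called at 96 h, and GP9 had means of 1.43 in UT and 2.19 in vit C-treated cells (q = 0.0757).
Of 4 fibroblast markers none was on all arrays and COL1A2 on none, with a sum of 0.699 to 1.3 in UT and 4.32 to 4.91 in vit C-treated cells at 96 h. DCN was called higher (mean -0.29 in UT and 2.19 in vit C-treated cells), beside 2.72% of genes tested. COL3A1 was called lower, beside 10.1%, with 1 of 3 UT arrays and 0 of 2 vit C arrays well above background. COL1A1 (0.71) was not called, and opposing probes left COL1A2 out of the test. Of 5 T cell markers 1, of 5 B cell markers 3 and of 4 epithelial markers 1 were on all arrays, and the T cell marker CD3D and the epithelial markers CDH1, KRT5 and TACSTD1 were on none. The B cell sum was 1.46 to 2.16 in UT and 3.54 to 3.98 in vit C-treated cells at 8 h, with means of CD79A at 0.33 and 1.75 and none of the 5 called, and 1.74 to 3.96 and 1.60 to 1.86 at 96 h. The monocyte and macrophage sum was 551 to 575 in UT and 565 to 608 in vit C-treated cells at 96 h. Of these 11 markers LYZ was called higher (1.17, q = 0.0422), ITGAM differed by -0.92 (q = 0.00478), under the fold threshold, and opposing probes left 2 out of the test. The part of these markers in the chemokine differences was not tested.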

How the data were processed

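RNA of 19 THP-1 cultures was hybridised with Cy3 to Agilent one-colour arrays of 60-base probes. The authors extracted the deposited spot intensities with Feature Extraction, version 10.5.1.1 in the file headers, with spatial and multiplicative detrending and with surrogates for low signals, without local background correction and without normalization between arrays. The deposited log2 values of the series matrix were made by the authors by subtracting the 75th percentile of each array, and were used as an alternative. Gene names are those of the array design.

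The processed signal was taken to log2, spots of 1 probe were averaged (50238 probes of 31033 gene names), and each array was shifted to its 75th percentile. On each array 57.5% to 72.8% of probes were well above background, and no spot was saturated. The precision is limited by the number of arrays. The 19 arrays entered 1 limma model with a mean for each of 8 groups (limma 3.58.1, R 4.3.3, lmFit and eBayes, 2-sided), which was tested on simulated data. A gene was called when a probe reached an absolute log2 fold change of 1 and a Benjamini-Hochberg q of 0.05. The q was computed over all probes left after genes with opposing probes were removed, as in the methods. Values are printed for the brightest probe of a gene by mean signal, unless another is named. Where no array of a group was well above background, the fold is a lower bound, computed against the mean, over that group's arrays, of the higher of the probe's own signal and the lowest signal well above background. The group with the higher level entered with its mean over all arrays.

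The comparisons were vit C against UT at each time, their mean effect, an F test of whether they differed, and each later time against 8 h within an arm. All 7 members are named always. Of each gene list up to 4 called genes with the largest change and a signal well above background throughout a compared group may be named, besides the receptors IL8RA and IL8RB. The genes most like the members were the 5 with the highest Pearson r. The members, the gene lists and these rules were chosen with earlier results of these data known. Alternatives were other normalizations, background correction, filters, gene means, the methods' t-test, slide or replicate number as a block, a fit to the compared groups only and leaving out each array. The replicates are separate biological samples per the methods. Probe coordinates are not given here, since the array design names an older genome build than the RefSeq promoters used.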

Additional observations from a re-analysis of the deposited data

Results flagged for a closer look

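The F test of differences between the 4 vit C effects called CXCL5 (q = 0.0231, limma), by its dimmer probe only. That probe was not well above background on any 8 h array or any UT array of 24 h, so background limits its effects at these times. The effect was 1.82, 1.07, 1.18 and 3.06 on the brighter probe at 8, 24, 48 and 96 h, for which the same test gave q = 0.0988. No other member was called in this test. Without the third UT array of 96 h 5 members were called, and without either vit C array of 96 h or the second UT array of 8 h none was. The vit C arrays of 96 h lay on a slide and scan day of their own, and slide and treatment cannot be told apart there.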

How the results depend on the processing

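The numbers of members called kept within 1.5 times of the reported count in 175 results of alternatives and moved further in 46. The values of single members reversed in 24 results, lost a call in 90, gained a call in 14 and kept sign and call in 1223. At 8 h 0 members were called with gene means of probes, the methods' t-test, slide as a fixed block or the replicate block. At 48 h 2 were called with quantile normalization or normexp, and 0 with the compared groups only, the t-test or slide as a fixed block. At 96 h 3 were called with gene means or the replicate block, and 0 with the compared groups only or the t-test. For the average 2 were called with opposing probes kept, the filter on dim probes, quantile normalization, the percentile over detected probes or normexp, and for the F test 2 with quantile normalization or normexp. In UT cells 2 were called at 24 h and 2 at 96 h with the compared groups only, and 3 at 96 h with gene means, slide as a fixed block or slide 1 alone. The fits to slide 1 or slide 2 alone were chosen after seeing the data.

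Leaving out 1 array at a time gave 0 members at 8 and 24 h, 0 to 1 at 48 h, 2 to 6 at 96 h, 1 to 2 for the average and 0 to 5 for the F test. In UT cells it gave 4 to 6 at 24 h, 5 at 48 h and 3 to 5 at 96 h, and in vit C-treated cells 4 to 6, 6 and 4. A group left with 1 array is assumed to vary like the others.

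With slide as a fixed block CXCL1 at 8 h reversed to -0.14, IL8 at 8, 24 and 48 h to -1.23, -2.09 and -1.31, CXCL3 at 24 and 48 h to -0.47 and -0.27 and CXCL6 at 48 h to -0.98. With gene means CXCL2 reversed to 0.22 at 48 h, 0.10 for the average and 0.18 for 96 h minus 8 h with vit C, and IL8 to -0.58 at 96 h and 0.04 in UT cells between 8 and 96 h. PPBP reversed to 0.12 at 8 h with normexp, and for the average to 0.02, 0.01 and 0.18 with quantile normalization, the detected percentile and normexp. Without 1 array vit C minus UT ran from -0.48 to 0.16 for CXCL2 at 24 h, -0.25 to 0.06 at 48 h, -0.21 to 0.08 for CXCL3 at 8 h, -0.67 to 1.14 for IL8 at 96 h and -0.15 to 0.08 for the PPBP average, and IL8 in UT cells between 8 and 96 h from -0.96 to 0.85. The causes were not tested.

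Between the arms, deviations from the group mean of samples with the same replicate number correlated at -0.34 to 0.13. With so few arrays per group these deviations depend on each other, so whether the numbers pair the samples cannot be decided. With the replicate block the counts were 0, 0, 1 and 3 at 8, 24, 48 and 96 h, 1 for the average, 1 for the F test, 5, 6 and 4 for the times in UT and 6, 6 and 4 in treated cells. PPBP at 8 h and the dimmer probe of IL8 were limited by signal over background.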
